A study of Mus musculus with 6 samples.

Results

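The 10 genes described here encode intermediate filament proteins or their close relatives: the simple keratins Krt19, Krt18 and Krt8, the cytoplasmic filament proteins desmin (Des), vimentin (Vim), nestin (Nes), synemin (Synm) and syncoilin (Sync), and the nuclear lamins Lmna and Lmnb1. They were taken by gene name from 55413 genes, and the family was picked because Krt19 was much higher in the libraries labelled FHL3-KO. Total RNA of C2C12 cells, which are mouse myoblasts kept as a line, was sequenced. Growth medium with 10% fetal bovine serum was replaced by medium with 2% horse serum to start differentiation, and day 4 was sampled. There were 3 libraries labelled FHL3-KO, a knockout of the LIM-domain protein FHL3, and 3 labelled WT, and both groups had the same line, medium and time. The labels name neither the clone of the knockout cells nor separate cultures, so a clone effect cannot be told apart from the label, and the errors measure only the spread between these libraries, which may be technical.

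Intermediate filaments are rope-like polymers of coiled-coil proteins. Keratins assemble only as pairs of an acidic type I chain (Krt18, Krt19) and a basic type II chain (Krt8), whereas vimentin and desmin can each form filaments alone. During muscle differentiation desmin comes to join myofibrils to each other and to the costameres, the attachment sites of the muscle membrane, where synemin, syncoilin and, in striated muscle, Krt8 and Krt19 are also found. Vimentin and nestin mark undifferentiated and regenerating muscle cells. The lamins form the meshwork under the inner nuclear membrane.

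Values were taken to be FPKM, fragments per kilobase of gene and per size of the library, a unit inferred from the values. They summed to 477577 to 494176 in libraries labelled FHL3-KO and 424987 to 473369 in WT libraries. No read counts were used, so absolute depth is unknown. Fhl3 RNA was at 57.2, 53.5 and 58.9 FPKM in libraries labelled FHL3-KO, against 27.8, 30.03 and 33.7 FPKM in WT libraries. The targeted transcript was thus higher, not lower, in libraries labelled FHL3-KO. RNA levels alone do not show whether the protein was lost, so the groups are named by their labels throughout. All 8 muscle markers (Myod1, Myog, Ckm, Acta1, Myh3, Ttn, Tnnt1 and Mymk) were at 1 FPKM or more in every library, and 7 of them rose. They summed to 8017 to 8476 FPKM in libraries labelled FHL3-KO and 2928 to 3258 FPKM in WT libraries. Most of these sums came from Acta1, at 5461 ± 236 FPKM in libraries labelled FHL3-KO and 1927 ± 84 FPKM in WT libraries. Of 7 fibroblast markers 5 passed the filter, and of these 1 rose, 2 fell and 2 did not pass the test. Dcn fell, with 12.1 ± 1.1 FPKM in libraries labelled FHL3-KO and 151.9 ± 10 FPKM in WT libraries, as did Col3a1, with 122.8 ± 9.9 and 201.6 ± 7.2 FPKM (limma adjusted p of 2.02e-06 and 0.00094). Col1a1 rose, with 8.67 ± 1.1 and 4.16 ± 0.059 FPKM, and Col1a2, with 146.7 ± 11 and 126.2 ± 3.0 FPKM, did not pass the test (limma adjusted p of 0.00108 and 0.0723). The 7 summed to 276.1 to 315.8 FPKM in libraries labelled FHL3-KO and 465.8 to 501.6 FPKM in WT libraries. By the calling rule given below, 19.7% of all genes that passed the filter rose and 21.2% fell. The part of either cell type in the results below was not tested. One WT library stood apart: its 12 hepatocyte markers, among them Alb, Apoa1 and Ahsg, summed to 108 FPKM in WT replicate 1 and to 0.0695 FPKM or less in each of the other libraries. In bulk RNA, fewer cells of a type and less RNA per cell cannot be told apart.

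The order of levels among the 10 genes was led by vimentin, with desmin next, in every library. By mean level over all libraries, Vim ranked 22 and Des 33 among the 12528 genes that passed the filter on low values (either group averaging 1 FPKM or more), Lmna ranked 141, Nes 250, Sync 2061, Lmnb1 3810 and Krt19 7813. Krt8, Synm and Krt18 were below that filter in both groups, so 7 of the 10 genes passed it. Together the 10 genes made up 0.836% ± 0.027 of the summed FPKM in libraries labelled FHL3-KO and 0.858% ± 0.020 in WT libraries (SD, n = 3 each). Vim and Des alone gave 80.3% ± 2.4 and 78.3% ± 0.69 of that family sum.

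**Figure D1:**
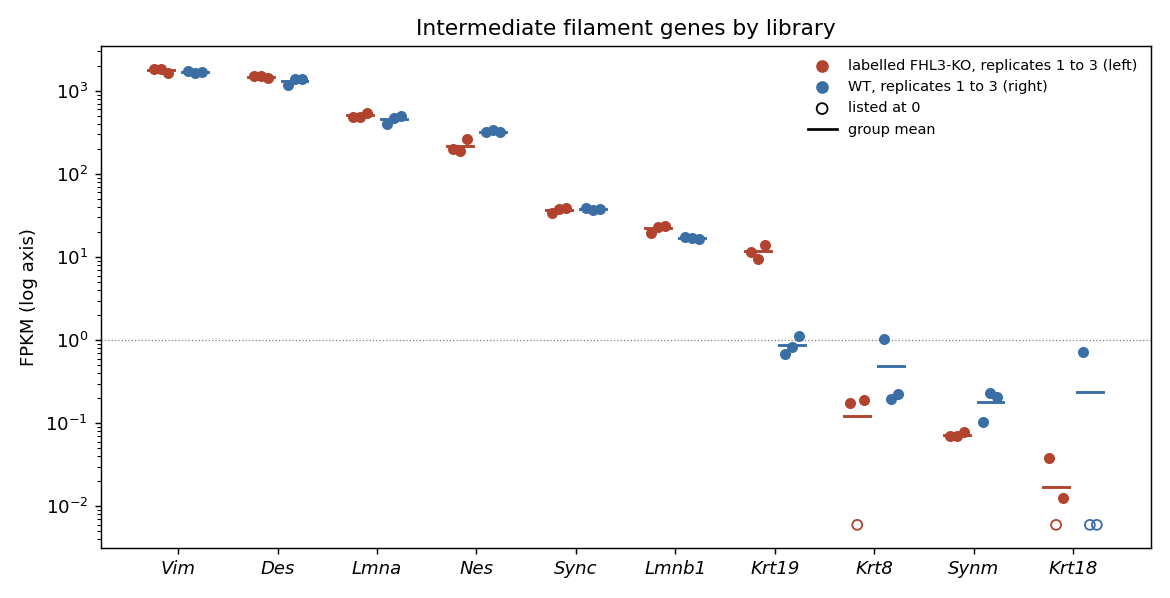
FPKM of the 10 genes in each library on a log axis, with libraries labelled FHL3-KO (left) and WT (right); bars are group means, open circles are values listed at 0, and the dotted line is the filter of 1 FPKM. Krt19 lies at 9.49 to 14.1 FPKM in libraries labelled FHL3-KO and at 0.684 to 1.11 FPKM in WT libraries, while Vim overlaps between the groups.

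Krt19, a small type I keratin of simple epithelia, was the gene by which the family was picked, so its values are a description. Krt19 (ENSMUSG00000020911, GRCm38 chromosome 11, 100140810 to 100148665, minus strand) had 11.7, 9.49 and 14.1 FPKM in libraries labelled FHL3-KO, against 0.684, 0.835 and 1.11 FPKM in WT libraries. Every library labelled FHL3-KO was above every WT library, and the lowest of them was several times the highest WT value. Krt19 passed the filter only through the libraries labelled FHL3-KO. Krt19 averaged 11.8 ± 2.3 FPKM in libraries labelled FHL3-KO and 0.877 ± 0.22 FPKM in WT libraries (SD, n = 3 each), a ratio of 13.4, and the difference was 2.75 (SE 0.16) on the log2(FPKM + 1) scale. With a pseudocount of 0.1 in place of 1 the difference was 3.61, since the larger pseudocount compresses low values. Even at its higher level Krt19 amounted to 0.67% ± 0.18 of the FPKM of vimentin in libraries labelled FHL3-KO, against 0.0516% ± 0.013 in WT libraries. None of the 1804 runs of 50 bases in annotated Krt19 transcripts occurred in a transcript of another gene, so related keratins offer no identical stretch of that length.

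Krt18 and Krt8, the usual simple keratin pair, were near 0 in the libraries where Krt19 was high. Krt8 (chromosome 15, 101996698 to 102004482) had 0.176, 0 and 0.193 FPKM in libraries labelled FHL3-KO, against 1.03, 0.198 and 0.227 FPKM in WT libraries. Krt18 (chromosome 15, 102028180 to 102032027) had 0.0383, 0 and 0.0126 FPKM in libraries labelled FHL3-KO, against 0.714, 0 and 0 FPKM in WT libraries. The one library with more than traces of both was WT replicate 1, which also held the hepatocyte RNA, and hepatocytes carry Krt8 and Krt18 as their only keratins. Without that library the WT mean of Krt8 was 0.213 FPKM and Krt18 was listed at 0 in both remaining WT libraries. The part of the hepatocyte RNA in the 2 keratin values was not tested. A further uncertainty for Krt8 is that 29.7% of its runs of 50 bases occur in transcripts of other genes, 26.9% in the pseudogene Krt8-ps. Krt8 reached at most 1.51% of the FPKM of Krt19 in a library labelled FHL3-KO.

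**Figure D2:**
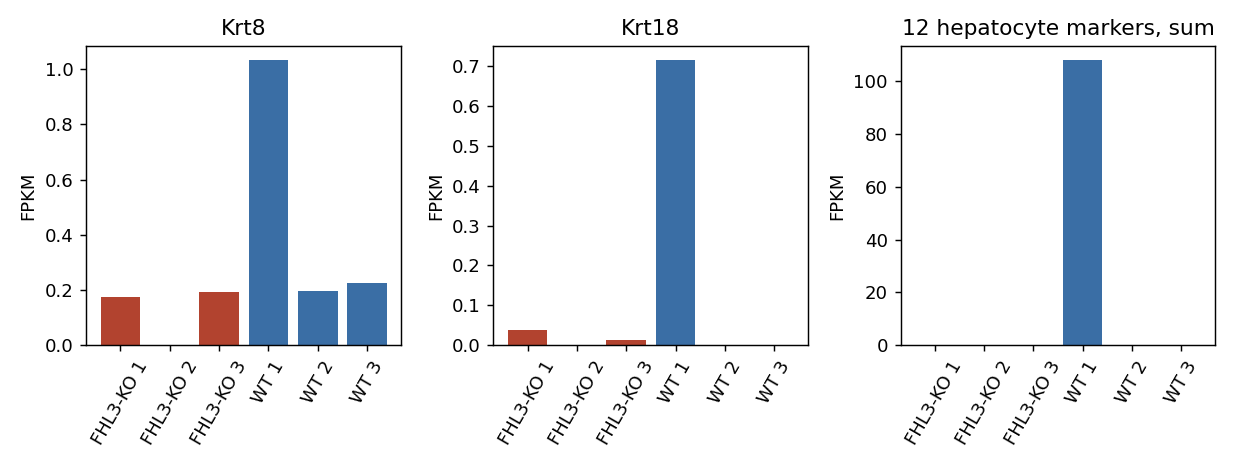
FPKM of Krt8, of Krt18 and of the sum of 12 hepatocyte markers in each library labelled FHL3-KO (left) and WT (right); bars are single libraries. All 3 panels are highest in WT replicate 1, at 1.03, 0.714 and 108 FPKM.

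The promoters of this pair are shown beside those of 2 members with high levels, desmin, whose mean in libraries labelled FHL3-KO was 1.13 times that in WT libraries, and nestin, which was lower in libraries labelled FHL3-KO. Sequences are from RefSeq (GRCm38.p6), run from 250 bases before to 50 bases after the annotated start, and are written on the gene's strand with E-boxes (CANNTG, the motif bound by MyoD and myogenin, the same on both strands) in capitals. The table of promoters had entries for 8 of the 10 genes, and those of Krt8, Krt18, Des and Nes lie at chr15:102004293-102004592 (minus), chr15:102027966-102028265 (plus), chr1:75360042-75360341 (plus) and chr3:87970843-87971142 (plus).
Krt8: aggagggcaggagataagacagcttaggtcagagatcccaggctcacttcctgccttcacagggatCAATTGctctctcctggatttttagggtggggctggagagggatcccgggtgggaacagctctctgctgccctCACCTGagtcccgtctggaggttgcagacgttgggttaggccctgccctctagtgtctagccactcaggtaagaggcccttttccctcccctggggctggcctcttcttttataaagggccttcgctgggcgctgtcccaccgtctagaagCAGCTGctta
Krt18: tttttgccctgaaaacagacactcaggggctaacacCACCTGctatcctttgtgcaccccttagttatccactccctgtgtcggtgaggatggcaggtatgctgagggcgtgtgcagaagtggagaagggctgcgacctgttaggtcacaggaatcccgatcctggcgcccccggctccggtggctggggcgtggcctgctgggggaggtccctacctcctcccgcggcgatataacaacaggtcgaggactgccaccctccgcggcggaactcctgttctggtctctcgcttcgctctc
Des: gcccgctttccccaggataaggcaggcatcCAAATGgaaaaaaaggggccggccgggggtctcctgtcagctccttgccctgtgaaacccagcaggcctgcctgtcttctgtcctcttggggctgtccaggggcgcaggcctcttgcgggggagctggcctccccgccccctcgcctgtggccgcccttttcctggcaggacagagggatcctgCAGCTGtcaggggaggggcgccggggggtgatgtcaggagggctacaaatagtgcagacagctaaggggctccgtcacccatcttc
Nes: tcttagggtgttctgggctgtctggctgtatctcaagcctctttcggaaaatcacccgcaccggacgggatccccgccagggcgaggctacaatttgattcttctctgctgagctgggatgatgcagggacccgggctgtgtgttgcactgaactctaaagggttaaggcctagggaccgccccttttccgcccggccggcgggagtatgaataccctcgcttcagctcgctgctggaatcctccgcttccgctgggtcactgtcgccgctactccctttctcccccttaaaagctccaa
The Krt8 window held 3 E-boxes and that of Krt18 held 1, while the window of Des held 2 and that of Nes held 0. E-boxes occurred in 3 of these 4 windows and in 72.3% of 32851 promoter windows of the same length. The letters CCATNTT, a core motif of YY1, the factor named in the series title, were searched on both strands and occurred once in the Des window and not in the windows of Krt8, Krt18 or Nes, against 16.1% of all windows. These matches are descriptions of letters, not of bound sites.

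The rest of the keratin family showed which other chains were present. Of 60 further intermediate filament genes listed, 59 had a row, 7 passed the filter, and 32 of the 52 that did not were listed at 0 in all 6 libraries. The keratin with the highest level was Krt80, a type II keratin of differentiating epithelia, at 56.2, 55.1 and 57.0 FPKM in libraries labelled FHL3-KO, against 84.6, 81.5 and 82.6 FPKM in WT libraries. The groups were apart and each was tight, and Krt80 fell by 0.56 (SE 0.067) on the log2(FPKM + 1) scale (limma adjusted p = 0.000941). Krt14, a type I keratin of basal epithelia, fell as well, to 4.35 ± 0.46 FPKM in libraries labelled FHL3-KO against 8.53 ± 1.8 FPKM in WT libraries (limma adjusted p = 0.00467). Krt10 was at 1.64 ± 0.45 and 1.67 ± 0.27 FPKM and Krt13 at 0.764 ± 0.14 and 1.02 ± 0.28 FPKM in libraries labelled FHL3-KO and WT libraries, and neither passed the test (limma adjusted p of 0.908 and 0.332).

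Summed over the measured keratins, the 2 types differed in opposite directions between the groups. Type I keratins summed to 19.8, 17.1 and 21.6 FPKM in libraries labelled FHL3-KO, against 11.96, 11.98 and 15.03 FPKM in WT libraries. Krt19 made up 59.9% ± 4.9 of that sum in libraries labelled FHL3-KO and 6.70% ± 0.88 in WT libraries, and without Krt19 the type I sum was 7.76 ± 0.33 FPKM in libraries labelled FHL3-KO and 12.1 ± 1.6 FPKM in WT libraries. Type II keratins summed to 56.3 ± 1.2 FPKM in libraries labelled FHL3-KO and 83.6 ± 2.0 FPKM in WT libraries, and Krt80 gave 98.6% or more of this sum in every library. The ratio of the type II to the type I sum was thus 2.91 ± 0.29 in libraries labelled FHL3-KO and 6.51 ± 0.86 in WT libraries. Since Krt19 entered the sums, they are given without a test.

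**Figure D3:**
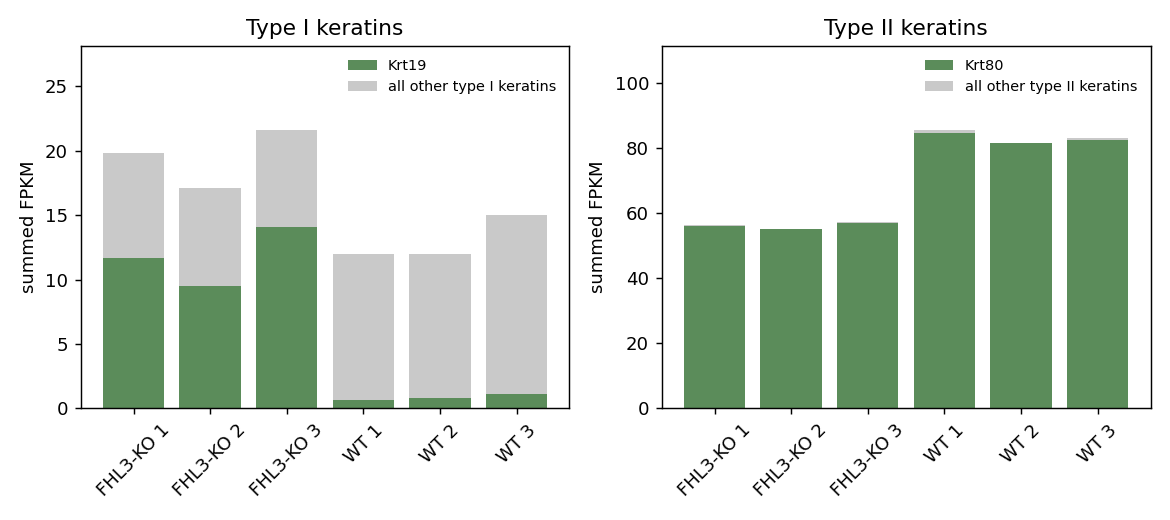
Summed FPKM of type I keratins (left panel, Krt19 in green) and type II keratins (right panel, Krt80 in green) per library, with libraries labelled FHL3-KO left of WT; grey is the sum of all other keratins of the type. Krt19 makes up 55.5% to 65.2% of the type I sum in libraries labelled FHL3-KO and 5.72% to 7.41% in WT libraries.

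Krt19 lies in the type I keratin cluster, and the genes around it are described here. Within 250 kb of its start the table had 37 other named genes, of which 14 were keratins and 6 passed the filter. Krt14, 58.9 kb upstream, fell, while Krt15, the nearest keratin downstream at 12.7 kb, was listed at 0 in every library. Of the 6 neighbours that passed the filter 2 rose and 1 fell, beside 19.7% that rose and 21.2% that fell over all genes. Both rises lay upstream. The translation initiation factor gene Eif1 was at 437.8 ± 56 FPKM in libraries labelled FHL3-KO and 297.5 ± 12 FPKM in WT libraries. Jup, which encodes plakoglobin, was at 196.9 ± 17 and 137.2 ± 3.3 FPKM (limma adjusted p of 0.00669 and 0.00353 for Eif1 and Jup). Between them the pseudogene Gm10039, at 54.3 ± 9.5 and 38.2 ± 8.3 FPKM, did not pass the test (limma adjusted p = 0.0539). Downstream, Krt13 and the pseudogene Gm11560 did not pass it either (limma adjusted p of 0.332 and 0.821). Among the genes in this window that passed the filter, Krt19 had the largest difference. Since the family was picked for the rise of Krt19, nothing is read from this order.

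**Figure D4:**
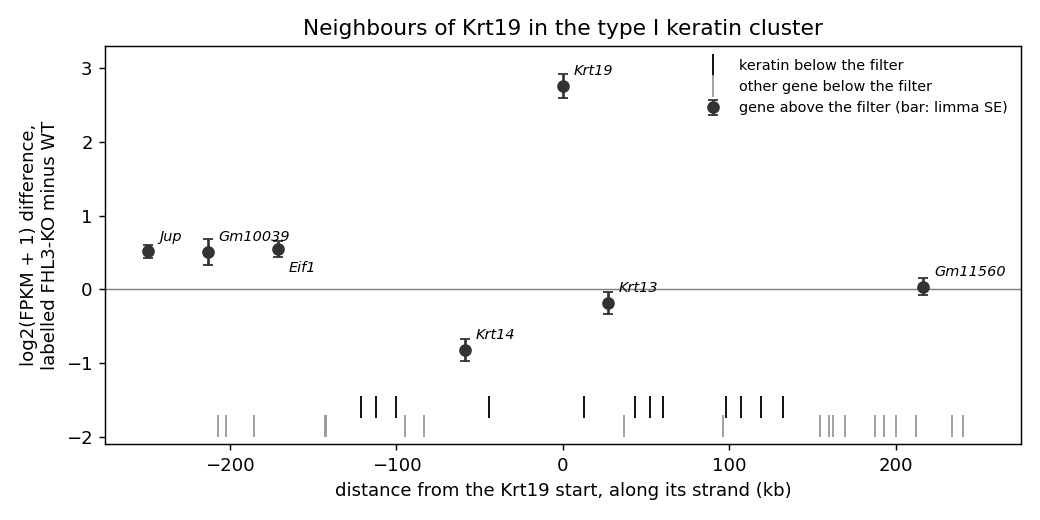
Difference in log2(FPKM + 1), libraries labelled FHL3-KO minus WT libraries, of genes within 250 kb of the Krt19 start, against distance along its strand; bars are limma standard errors, and ticks mark genes below the filter. Krt19 lies at 2.75, Krt14 at -0.82 and Krt13 at -0.19.

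Epithelial and mesothelial markers were read beside Krt19, since both cell types carry it. All 14 epithelial markers summed to 2.42 to 3.52 FPKM in libraries labelled FHL3-KO and 1.04 to 1.83 FPKM in WT libraries. The E-cadherin gene Cdh1 was at 0.969, 1.51 and 0.969 FPKM in libraries labelled FHL3-KO, against 0.0522, 0.0121 and 0.00971 FPKM in WT libraries. It passed the filter only through the group where it is high, and not without replicate 2 labelled FHL3-KO, so its difference is given without a test. The other 13 were below the filter and summed to 1.45 to 2.01 FPKM in libraries labelled FHL3-KO and 1.03 to 1.78 FPKM in WT libraries. These ranges overlap only through WT replicate 1 (1.78 FPKM), the library with hepatocyte RNA. WT replicates 2 and 3, at 1.40 and 1.03 FPKM, were below every library labelled FHL3-KO. Epcam, which most simple epithelia express, was listed at 0 in every library. Of 5 mesothelial markers 2 passed the filter: mesothelin (Msln) fell, with 110 ± 3.5 FPKM in libraries labelled FHL3-KO and 149.3 ± 4.3 FPKM in WT libraries (limma adjusted p = 0.00316), and Upk1b, which passed only through the libraries labelled FHL3-KO, was at 2.05 ± 0.59 and 0.524 ± 0.18 FPKM. The part of such cells in the Krt19 values was not tested.

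Genes with a pattern most like that of Krt19 were sought over the 6 libraries by Pearson's correlation of log2(FPKM + 1). The 5 genes most like it were Nr2f6, an orphan nuclear receptor (r = 0.999), Sap30, a subunit of a histone deacetylase complex (0.998), the muscle creatine kinase Ckm (0.998), Fam171a2 (0.998) and Crabp2, which binds retinoic acid (0.998). All 5 have a gap between the groups, and 132 genes reached a correlation of 0.99. Over all genes tested the groups did not overlap for 53.8%. Krt19 was picked for its difference between the groups, so a high correlation here restates a group difference. Shared control with Krt19 was not tested.

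Vimentin and desmin, the bulk of the cytoplasmic filament RNA, were close in the 2 groups. Vim (chromosome 2, 13573927 to 13582826) had 1834, 1850 and 1639 FPKM in libraries labelled FHL3-KO, against 1755, 1667 and 1697 FPKM in WT libraries, and the groups overlapped. Des (chromosome 1, 75360329 to 75368579) had 1495, 1499.6 and 1451 FPKM in libraries labelled FHL3-KO, against 1186, 1374 and 1386 FPKM in WT libraries. The lowest desmin value was that of WT replicate 1, and the groups did not overlap although the nearest values were close. The log2(FPKM + 1) differences were 0.05 (SE 0.11) for Vim and 0.18 (SE 0.11) for Des, both below the threshold, while the muscle markers beside them rose as given above. Without WT replicate 1 the difference of Des was 0.10, and it was 0.05 after quantile normalization and 0.07 after scaling to equal sums. The sign for Vim turned after quantile normalization and after scaling to equal sums. The ratio of Vim to Des was 1.2 ± 0.058 in libraries labelled FHL3-KO and 1.31 ± 0.15 in WT libraries, or 1.21 and 1.22 in WT replicates 2 and 3.

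Nestin was lower in the libraries labelled FHL3-KO. Nes (chromosome 3, 87971078 to 87980451) had 199.4, 191 and 266.8 FPKM in libraries labelled FHL3-KO, against 320.4, 334.1 and 319.6 FPKM in WT libraries. All values labelled FHL3-KO were below all WT values, with replicate 3 labelled FHL3-KO nearer to WT than the others. The means were 219.1 ± 42 and 324.7 ± 8.2 FPKM, the log2(FPKM + 1) difference was -0.58 (SE 0.13), and over 14 alternatives it ran from -0.84 to -0.47. Relative to vimentin, with which nestin copolymerises, Nes amounted to 12.5% ± 3.3 in libraries labelled FHL3-KO, against 19.05% ± 0.91 in WT libraries.

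Syncoilin and synemin, which tie desmin filaments to the dystrophin-associated complex, were at very different levels. Sync (chromosome 4, 129287617 to 129308559) had 34.3, 38.0 and 38.5 FPKM in libraries labelled FHL3-KO, against 39.5, 36.8 and 38.0 FPKM in WT libraries, with overlapping groups and a log2(FPKM + 1) difference of -0.04 (SE 0.078). Sync overlaps Rbbp4 on the opposite strand, with 24.0% of its runs of 50 bases in common, and no source used here says whether the deposited values use strand. Rbbp4 averaged 111.7 FPKM in libraries labelled FHL3-KO and 74.3 FPKM in WT libraries. The part of Rbbp4 reads in the Sync values was not tested. Synm (chromosome 7, 67730160 to 67759742) had 0.0697, 0.0712 and 0.0785 FPKM in libraries labelled FHL3-KO, against 0.103, 0.234 and 0.206 FPKM in WT libraries. It was below the filter and was not tested, and it overlaps Ttc23 on the opposite strand. Ttc23 was far above Synm, averaging 5.41 FPKM in libraries labelled FHL3-KO and 6.22 FPKM in WT libraries.

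Of the lamins, Lmna overlapped between the groups and Lmnb1 did not. Lmna, which gives lamins A and C (chromosome 3, 88480147 to 88509956), had 484.2, 485.2 and 549.6 FPKM in libraries labelled FHL3-KO, against 395.5, 473 and 496.4 FPKM in WT libraries. The groups overlapped, with a log2(FPKM + 1) difference of 0.16 (SE 0.12) that was -0.09 after quantile normalization and 0.06 without WT replicate 1, the library with hepatocyte RNA. Lmnb1, the B-type lamin that is high in cycling cells (chromosome 18, 56707813 to 56753424), had 19.3, 23.2 and 23.8 FPKM in libraries labelled FHL3-KO, against 17.6, 16.9 and 16.4 FPKM in WT libraries. Here the groups did not overlap, and the difference of 0.36 (SE 0.099) was past the threshold in 8 of 14 alternatives. The other B-type lamin, Lmnb2, was at 40.7 ± 4.7 and 34.3 ± 1.2 FPKM in libraries labelled FHL3-KO and WT libraries and did not pass the test (limma adjusted p = 0.0921). Of 14 genes of cycling cells 4 rose, among them Ccnb1 and Aurkb, and 4 fell, among them Mki67 and Top2a. Over all genes 19.7% rose and 21.2% fell. The part of the cycling-cell genes in the Lmnb1 values was not tested.

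By the rule used for all genes (limma on log2(FPKM + 1), Benjamini-Hochberg adjusted p of at most 0.05), Krt19 and Lmnb1 were called higher and Nes lower, 3 of the 7 genes that passed the filter. Over all 12528 genes 40.8% were called, 19.7% higher and 21.2% lower, and the groups did not overlap for 53.8%, against 4 of these 7 genes. Since the family was picked on this contrast, nothing is read from these counts, and no p-value is given for its members. Their median log2 difference was 0.16, beside -0.005 over all genes tested. After scaling every library to equal FPKM sums, the median over all genes was -0.10 and 36.2% of all calls were higher in libraries labelled FHL3-KO, against 48.2% without that scaling.

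**Figure D5:**
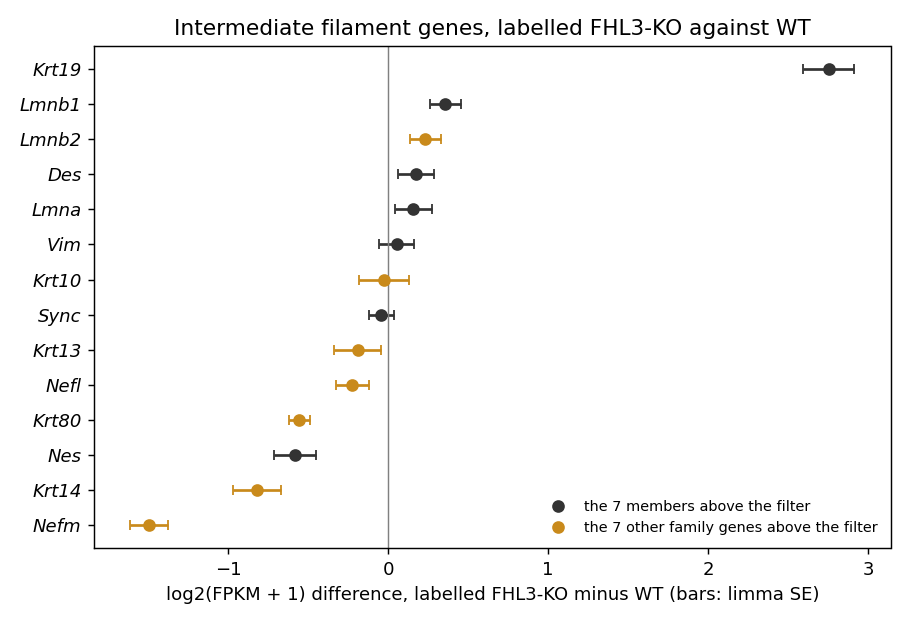
Difference in log2(FPKM + 1), libraries labelled FHL3-KO minus WT libraries, for the 7 members (dark) and the 7 other family genes (ochre) that passed the filter; bars are limma standard errors. Krt19 lies at 2.75, and the remaining 13 genes lie between -1.49 (Nefm) and 0.36 (Lmnb1).

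Among the other intermediate filament genes, 0 rose and 3 fell of the 7 that passed the filter, with a median log2 difference of -0.22, beside 19.7% that rose and 21.2% that fell over all genes. Besides Krt80 and Krt14 these included Nefm, the medium neurofilament chain, which fell to 3.83, 4.08 and 4.88 FPKM in libraries labelled FHL3-KO, against 15.5, 12.8 and 13.1 FPKM in WT libraries (log2 difference -1.49, SE 0.12, limma adjusted p = 0.000182). The light chain Nefl, which pairs with Nefm in neurofilaments, was at 19.9 ± 2.5 FPKM in libraries labelled FHL3-KO and 23.3 ± 0.20 FPKM in WT libraries and did not pass the test (limma adjusted p = 0.113), although it did after scaling to equal sums (0.0436), after removal of the length trend (0.0396) and without replicate 3 labelled FHL3-KO (0.045). Whether the 2 chains differed from each other was not tested. Without a filter on low values 4 of the other filament genes were called, 1 higher and 3 lower. Krt13 passed the filter only through the WT libraries.

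Of 23 genes that anchor, bridge or fold cytoplasmic filaments, 22 had a row and 17 passed the filter, and of these 3 rose, 4 fell and 10 did not pass the test, with a median log2 difference of -0.09. Over all genes 40.8% were called, so this share is near the background and is no result about the group. The rises were Dtna, the dystrobrevin that binds syncoilin and synemin, with 39.2 ± 4.8 FPKM in libraries labelled FHL3-KO and 21.4 ± 2.8 FPKM in WT libraries, Jup and the plakophilin Pkp4, with 22.7 ± 4.2 and 15.8 ± 1.4 FPKM (limma adjusted p of 0.00214, 0.00353 and 0.0244). The falls were Mtm1, the phosphatase myotubularin, which binds desmin, with 1.002 ± 0.30 FPKM in libraries labelled FHL3-KO and 3.84 ± 0.72 FPKM in WT libraries, the plakin Dst, with 18.8 ± 1.6 and 37.7 ± 11 FPKM, the dystrophin relative Utrn, with 11.7 ± 2.3 and 22.0 ± 5.7 FPKM, and the chaperone Dnajb6, with 62.7 ± 4.6 and 76.3 ± 3.8 FPKM (limma adjusted p of 0.0012, 0.00681, 0.0124 and 0.0314). Plectin (Plec), the main cross-linker of desmin, was at 71.2 ± 6.4 and 82.6 ± 1.5 FPKM and the desmin chaperone Cryab at 530.4 ± 22 and 466.4 ± 20 FPKM, and neither passed the test (limma adjusted p of 0.0803 and 0.124). The calls of Pkp4 and Dnajb6 were the least stable: over the alternatives that ended them, the limma adjusted p ran from 0.0506 to 0.0898 for Pkp4 (among them leaving out WT replicate 2, WT replicate 3 or replicate 3 labelled FHL3-KO) and from 0.0555 to 0.12 for Dnajb6 (among them leaving out WT replicate 1, WT replicate 2 or replicates 1 or 3 labelled FHL3-KO). The call of Utrn ended without a filter (0.0566), and Plec passed after quantile normalization (0.0119) and after scaling to equal sums (0.0221). After removal of the length trend the log2 difference of Plec turned from -0.21 to 0.13 (limma adjusted p = 0.501). Those of Mtm1, Dst and Utrn shrank from -1.27, -0.94 and -0.84 to -0.97, -0.52 and -0.51, and all were still called. Those of Dtna, Jup and Pkp4 grew from 0.84, 0.52 and 0.49 to 1.17, 0.63 and 0.57.

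All 19 partners and processing enzymes of the lamins passed the filter, and 4 rose, 4 fell and 11 did not pass the test, with a median log2 difference of -0.04. This share too is near the 40.8% called over all genes. Of the enzymes that mature farnesylated lamins, both farnesyltransferase subunits and the protease Rce1 rose: Fnta was at 51.3 ± 3.5 FPKM in libraries labelled FHL3-KO and 37.7 ± 1.7 FPKM in WT libraries, Fntb at 13.005 ± 0.42 and 10.4 ± 0.70 FPKM and Rce1 at 26.3 ± 1.3 and 18.5 ± 2.9 FPKM (limma adjusted p of 0.0054, 0.0266 and 0.014). The methyltransferase of the same pathway, Icmt, fell, with 16.2 ± 0.71 FPKM in libraries labelled FHL3-KO and 24.5 ± 0.54 FPKM in WT libraries (limma adjusted p = 0.00137), and the lamin A protease Zmpste24 did not pass the test (0.242). The lamina-associated Tmpo fell, with 63.3 ± 5.1 and 98.3 ± 9.7 FPKM, as did the inner membrane protein Tmem43, with 47.8 ± 0.31 and 71.4 ± 2.3 FPKM, and the nesprin Syne2, with 1.38 ± 0.22 and 2.56 ± 0.90 FPKM, while the chromatin-bridging Banf1 rose, with 112.1 ± 27 and 66.4 ± 7.8 FPKM (limma adjusted p of 0.00293, 0.000923, 0.0487 and 0.0173). The emerin gene Emd, at 35.0 ± 4.6 and 35.8 ± 1.8 FPKM, did not pass the test (limma adjusted p = 0.794). The count of calls was 4 without WT replicate 2 or without replicate 1 labelled FHL3-KO, and 5 without WT replicate 1. Calls over all genes fell as well, from 5112 to 3272, 3574 and 3984 in these 3 settings. Over the alternatives that ended a call, the limma adjusted p ran from 0.052 to 0.137 for Fntb (each library left out in turn, and scaling to equal sums) and from 0.05 to 0.242 for Syne2 (among them leaving out any library but WT replicate 3). It ran from 0.0546 to 0.0726 for Banf1 (among them leaving out WT replicates 1 or 2, or replicates 1 or 3 labelled FHL3-KO) and from 0.0509 to 0.0522 for Rce1 (leaving out WT replicate 2 or replicate 1 labelled FHL3-KO), while Fnta, Icmt, Tmpo and Tmem43 were called in all 14 alternatives at a threshold of 0.05. After removal of the length trend the log2 differences of Tmpo and Syne2 shrank from -0.63 and -0.56 to -0.37 and -0.17. Those of Icmt, Tmem43 and Fnta went from -0.57, -0.57 and 0.43 to -0.51, -0.59 and 0.36. The count of calls was then 9, with 6 higher and 3 lower, beside 5587 over all genes.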

How the data were processed

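RNA-seq values of 3 libraries labelled FHL3-KO and 3 labelled WT were analysed. Per the submitters' processing notes, the build was mm10 and the tools were HISAT2 2.2.1, Trim Galore 0.6.6, DESeq2 1.28.1 and featureCounts 2.0.1, without their roles. No source used here gives the annotation, the strand setting or the treatment of shared reads. The deposited table has 55420 rows of decimal values, taken to be FPKM: per the file headers only IDs, names and samples are known, and the column sums differ and are not those of TPM or CPM. Depth is therefore unknown and no counting interval is given. Rows with repeated gene IDs (7) were left out. Coordinates and exon lengths are from GENCODE M21 (GRCm38, the build mm10 names), which held 94.1% of the IDs.

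Genes averaging 1 FPKM or more in either group (12528) were fitted as log2(FPKM + 1) with limma 3.58.1 in R 4.3.3 (mean-variance trend, two-sided), adjusted by Benjamini-Hochberg over all of them at a threshold of 0.05. Differences on this scale understate the change of low genes; levels are mean FPKM ± SD. The exact permutation test of 3 against 3 cannot go below p = 0.1 and was not used. The fit was tested on simulated data. Alternatives were a pseudocount of 0.1, no filter, a filter at 5 FPKM, quantile normalization, median-of-ratios scaling, scaling to equal sums, subtracting a spline on exon length (5 degrees of freedom) from every library, the replicate number as a block, a threshold of 0.01 and leaving out each library.

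The members and gene lists were chosen with earlier results of these data known. Text names all members, the 6 genes of each partner list with the smallest p, every other filament gene that passed the filter, up to 3 markers per list by level and the 5 genes most correlated with Krt19. Myod1, Myh3, Ttn, Tnnt1, Col1a1, Plec, Cryab, Dnajb6, Fntb, Syne2, Zmpste24, Emd, Epcam, the cycling-cell genes, Eif1, Gm10039, Gm11560 and Krt15 were named after their values were seen.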

Additional observations from a re-analysis of the deposited data

How the results depend on the processing

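The calls over all genes numbered 5112, and 2695 at a threshold of 0.01; leaving out 1 library gave 3272 (without WT replicate 2) to 5273. At 0.01 only Krt19 of the members was called (1 of 3), with 4 filament linkers and chaperones (7 at 0.05) and 4 lamin partners (8 at 0.05). Krt19 was the gene by which the family was picked and passed the filter only through libraries labelled FHL3-KO. Nothing is therefore read from its call at 0.01. Without a filter on low values 4 linkers and chaperones were called. Leaving out 1 library gave 2 to 3 members, 3 to 4 other filament genes, 5 to 8 linkers and chaperones and 4 to 7 lamin partners. The count of members changed through Lmnb1, which failed without a filter, after scaling to equal sums and without WT replicate 2, WT replicate 3 or replicates 2 or 3 labelled FHL3-KO. The cause was not tested. No label says whether the replicate numbers pair the samples, and 3 libraries per group are too few to tell. Deviations from the group means of same-numbered libraries correlated at -0.127, -0.063 and 0.316, and not every library correlated best with its own number. The replicate block gave 4759 calls in all, 3 members, 3 other filament genes, 8 linkers and chaperones and 8 lamin partners. Krt8, Krt18 and Synm were near 0 and, with depth unknown, were left untested.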
